A study of Homo sapiens with 4 samples.

Results

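NF-kB is a family of transcription factors, and the 10 genes described here encode its subunits and the proteins that restrain them. They were chosen by name, as the rows NFKB1, NFKB2, REL, RELA, RELB, NFKBIA, NFKBIB, NFKBIE, TNFAIP3 and BCL3 of a table of 26484 gene symbols. Earlier results of these data were known when they were chosen, so shares set beside those of all genes are a description. All 10 were in the table, and all 10 passed the filter on low counts that left 15431 genes to test. RNA was sequenced after poly(A) selection from A375, a human melanoma cell line, in 4 libraries. The knockout group held 2 libraries of A375 p53-/- cells, edited with CRISPR-Cas9 to remove the tumour suppressor p53, and they are named knockout 2 and knockout 8 after the numbers in the deposited table. The parental group held 2 libraries of the unedited line with wild-type p53, named parental 1 and parental 2. Both groups were grown in DMEM, and the labels name no cytokine or other stimulus for either. The labels do not say whether the knockout libraries came from 1 clone, from several or from a pool, or whether libraries of a group were separate cultures, so the p-values describe no more than the variation among the 4 libraries, which may be technical. No edited cells that kept p53 were included, and effects of editing or of selecting cells cannot be told apart from those of p53 loss.

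In resting cells NF-kB dimers are held in the cytoplasm by IkB proteins. Signals from cytokine and Toll-like receptors activate the IkB kinase complex, IkB proteins are degraded, and the dimers enter the nucleus and switch on inflammatory and survival genes. Several of these target genes encode NF-kB subunits and inhibitors themselves, which makes the pathway a feedback loop. In melanoma cells NF-kB is known to drive chemokine production. p53 and NF-kB have each been described as restraining the activity of the other.

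Of the 10 genes, 8 were higher in both p53 knockout libraries than in either parental library (22.8% of all 15431 genes tested were), 1 was lower in both (23.7% of all genes tested), and the values of 1 overlapped between the groups. Without regard to direction, 9 of the 10 did not overlap, against 46.4% of all genes tested. The 8 were NFKB1, NFKB2, REL, RELB, NFKBIA, NFKBIB, NFKBIE and TNFAIP3, the gene lower in both was BCL3, and the gene with overlapping values was RELA. Knockout means were 1.25 to 1.44 times the parental means in 7 of the 8, and 2.04 times in TNFAIP3. The median log2 fold change of the 10 genes was 0.43, against -0.0057 over all genes tested. DESeq2, run on the recovered reads, called 5 of the 10 at an adjusted p under 0.05, all higher, namely TNFAIP3, NFKBIA, RELB, NFKB2 and NFKB1 (2.44% of 16330 genes with an adjusted p were called in either direction, 1.21% higher). The main test, limma on log2(normalized count + 1), called 0 of the 10 and 0% of all genes at an adjusted p under 0.05; at an unadjusted p under 0.05 it gave 7 of the 10, all higher, against 5.85% of all genes higher and 6.16% lower. The edgeR quasi-likelihood test and limma-voom also called 0 of the 10 and 0 of all genes, with the same count of 7 higher at an unadjusted p under 0.05. The DESeq2 calls among the 10 were lost without either parental library, where most calls among all genes were lost too. Without knockout library 8 more were called, among the 10 and among all genes. Without knockout library 2 more were called among all genes, but not among the 10. Each of these fits left 1 library in a group.

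**Figure D1:**
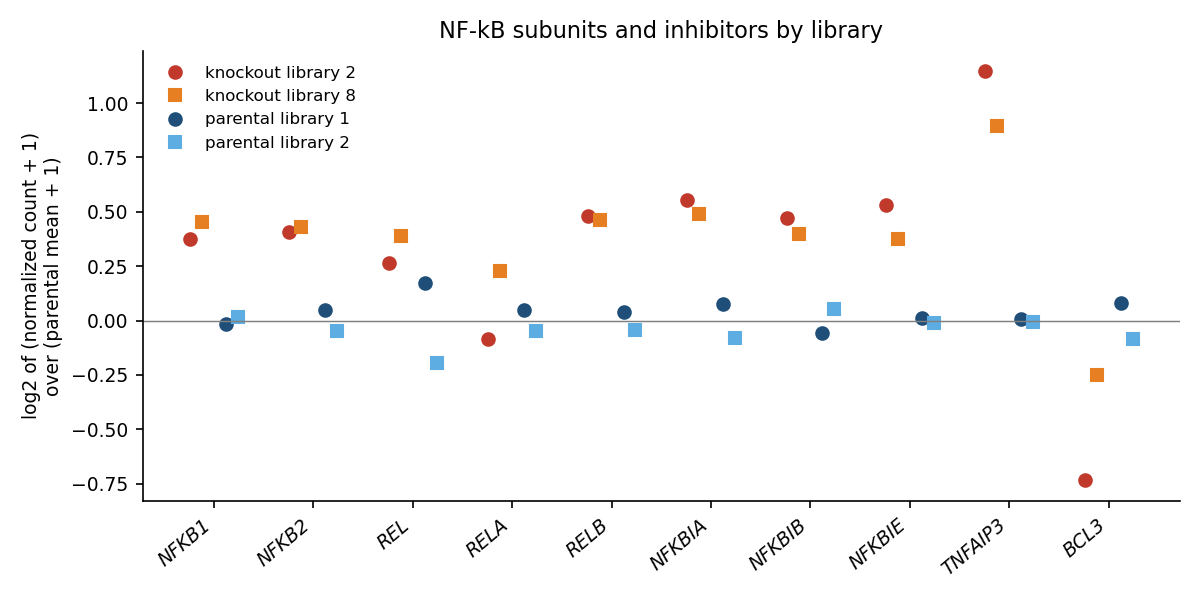
Log2 of each library's normalized count plus 1 over the parental mean plus 1, for the 10 genes; each point is 1 library, red and orange the knockout, blue the parental group. Both knockout points lie above both parental points in 8 genes, below them in BCL3 and on either side of them in RELA.

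The promoters of several of these genes carry the kB motif, the 10-base sequence that NF-kB dimers bind. They were searched after the fold changes were seen, and a part of the motif in those changes was not tested. As said above, several known NF-kB targets encode subunits and inhibitors, so the matches describe the genes chosen and not these libraries. The kB consensus was searched on both strands of RefSeq promoter windows on GRCh38.p14, which run from 250 bases before to 50 bases after an annotated start, and a position that matches on both strands was joined with any match overlapping it. Windows were found for 8 of the 10 genes, all but RELB and NFKBIE. A match was present in 8 of the 13 windows of these genes and in 5.91% of all 35116 windows. Counted by gene, 7 of the 8 had a match in at least 1 window, against 9.18% of 11030 tested genes with a window; genes with several windows have more chances to hold one. RELA was the gene without a match, in 2 windows. A match describes letters in a window, not binding. The full windows of the 2 inhibitor genes with the largest fold changes, NFKBIA (chr14:35404700-35404999, minus strand) and TNFAIP3 (chr6:137867009-137867308, plus strand), follow 5′ to 3′ on the strand of the gene, with matches in capitals.
NFKBIA: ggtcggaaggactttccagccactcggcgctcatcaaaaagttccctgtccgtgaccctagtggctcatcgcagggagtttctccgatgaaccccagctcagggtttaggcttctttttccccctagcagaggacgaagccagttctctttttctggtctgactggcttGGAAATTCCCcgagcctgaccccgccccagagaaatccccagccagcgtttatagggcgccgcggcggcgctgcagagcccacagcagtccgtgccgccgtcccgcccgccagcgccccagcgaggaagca
TNFAIP3: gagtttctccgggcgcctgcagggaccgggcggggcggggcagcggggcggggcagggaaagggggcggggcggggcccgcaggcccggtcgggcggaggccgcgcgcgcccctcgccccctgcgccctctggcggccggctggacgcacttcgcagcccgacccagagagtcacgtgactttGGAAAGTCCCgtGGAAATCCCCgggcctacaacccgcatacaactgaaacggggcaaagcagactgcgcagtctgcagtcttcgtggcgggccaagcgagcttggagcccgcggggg
Relative to the start, the NFKBIA match spans -81 to -72, and the 2 TNFAIP3 matches span -67 to -58 and -55 to -46. Matches of the subunit genes, of NFKBIB and of BCL3 are shown with 10 bases on each side, to compare their letters.
NFKB1, chr4:102501300-102501329, plus strand: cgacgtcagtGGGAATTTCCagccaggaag
NFKB2, chr10:102394461-102394491, plus strand: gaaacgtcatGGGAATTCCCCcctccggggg
NFKB2, chr10:102394490-102394519, plus strand: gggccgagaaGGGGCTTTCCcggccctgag
NFKB2, chr10:102395519-102395548, plus strand: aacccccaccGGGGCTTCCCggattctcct
NFKB2, chr10:102395674-102395703, plus strand: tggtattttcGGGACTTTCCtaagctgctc
REL, chr2:60881517-60881547, plus strand: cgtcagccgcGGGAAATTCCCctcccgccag
NFKBIB, chr19:38899931-38899961, plus strand: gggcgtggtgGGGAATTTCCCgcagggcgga
BCL3, chr19:44748700-44748729, plus strand: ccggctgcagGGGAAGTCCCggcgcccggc
BCL3, the gene that was lower in both knockout libraries, thus also holds a match, which spans 3 to 12 relative to its start. REL, NFKBIB and 1 of the NFKB2 matches read as kB motifs on both strands.

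Among the subunits, NFKB1 (ENSG00000109320, chr4:102501329-102617302 on GRCh38, plus strand) encodes p105, which is processed to the DNA-binding subunit p50. Its normalized counts, read counts divided by 1 size factor per library, were 6586 and 6957 in knockout libraries 2 and 8, against 5022 and 5138 in parental libraries 1 and 2. Both knockout values lay above both parental values, by more than either pair differed within itself. The log2 fold change was 0.41 ± 0.08 by limma (SE; adjusted p = 0.25) and 0.41 ± 0.12 by DESeq2 (adjusted p = 0.0266). NFKB2 (ENSG00000077150, chr10:102394110-102402529, plus strand) encodes p100, the precursor of p52 in the noncanonical pathway and itself an IkB-like inhibitor. It had normalized counts of 8982 and 9106 in knockout libraries 2 and 8, against 6992 and 6536 in parental libraries 1 and 2. The groups did not overlap, and the knockout libraries were nearly level with each other. Its log2 fold change was 0.42 ± 0.08 by limma (SE; adjusted p = 0.258), and DESeq2 called it higher (adjusted p = 0.0232).

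RELB (ENSG00000104856, chr19:45001430-45038198, plus strand), the partner of p52, had normalized counts of 2443 and 2412 in knockout libraries 2 and 8, against 1798 and 1699 in parental libraries 1 and 2. Both knockout libraries were higher, and they differed from each other by only -0.02 on the log2 scale (library 8 minus library 2). Its log2 fold change was 0.47 ± 0.08 by limma (SE; adjusted p = 0.234), and DESeq2 called it higher (adjusted p = 0.021). REL (ENSG00000162924, chr2:60881521-60931610, plus strand), the c-Rel subunit best known from lymphocytes, was counted at 656 and 714 in knockout libraries 2 and 8, against 615 and 476 in parental libraries 1 and 2. Both knockout values lay above both parental values, but parental library 2 was lower than library 1 by a log2 difference of -0.37, larger than that between the group means. Neither limma (log2 fold change 0.34 ± 0.16, SE; adjusted p = 0.498) nor DESeq2 (adjusted p = 0.749) called it. A same-strand noncoding gene of GENCODE 29 shares 43.3% of the exon bases of REL, so its reads are uncertain.

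RELA (ENSG00000173039, chr11:65653596-65663094, minus strand) encodes p65, the subunit of the classical p50-p65 dimer that activates transcription. Normalized counts were 3049 in knockout library 2 and 3785 in knockout library 8, against 3335 and 3122 in parental libraries 1 and 2. The parental libraries thus lay between the knockout libraries. The log2 fold change was 0.07 by limma, with a 95% interval from -0.27 to 0.41 (adjusted p = 0.837), an interval that holds changes in either direction. Without knockout library 8 its limma log2 fold change was -0.082, and without knockout library 2 it was 0.23.

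Log2 fold changes of the 5 inhibitor genes ran from -0.49 to 1.02, and those of the 5 subunit genes from 0.07 to 0.47. TNFAIP3 (ENSG00000118503, chr6:137867188-137883312, plus strand) encodes A20, a ubiquitin-editing enzyme that shuts off signalling upstream of the IkB kinases. It had 1949 and 1636 normalized counts in knockout libraries 2 and 8, against 884 and 876 in parental libraries 1 and 2. On the log2 scale it stood 1.15 (library 2) and 0.89 (library 8) above the parental mean, the largest of the 10 genes in each. The log2 fold change was 1.02 ± 0.12 by limma (SE; unadjusted p = 4.91e-04, the 42nd smallest of all genes tested; adjusted p = 0.176) and 1.03 ± 0.17 by DESeq2 (adjusted p = 5.84e-07). An antisense gene of GENCODE 29 overlaps 1.88% of its exon bases, and reads there cannot be assigned with certainty.

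NFKBIA (ENSG00000100906, chr14:35401511-35404749, minus strand) encodes IkB alpha, the inhibitor that is degraded and then resynthesized after each activation. Its normalized counts were 3336 and 3192 in knockout libraries 2 and 8, against 2398 and 2147 in parental libraries 1 and 2. The groups did not overlap, and the knockout libraries differed from each other by less than the parental ones did. The log2 fold change was 0.52 ± 0.09 by limma (SE; adjusted p = 0.238), and DESeq2 called it higher (adjusted p = 0.0122). NFKBIB (ENSG00000104825, chr19:38899700-38908893, plus strand), IkB beta, had normalized counts of 1253 and 1190 in knockout libraries 2 and 8, against 869 and 937 in parental libraries 1 and 2. NFKBIE (ENSG00000146232, chr6:44258166-44265788, minus strand), IkB epsilon, had 759 and 681 in knockout libraries 2 and 8, against 530 and 520 in parental libraries 1 and 2. Neither gene overlapped between the groups, but neither was called. Their log2 fold changes by limma were 0.44 ± 0.10 for NFKBIB (SE; adjusted p = 0.27, and 0.143 by DESeq2) and 0.45 ± 0.11 for NFKBIE (SE; adjusted p = 0.306, and 0.24 by DESeq2). NFKBIB shares 1.72% of its exon bases with SIRT2 on the opposite strand.

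BCL3 (ENSG00000069399, chr19:44747705-44760044, plus strand) encodes an atypical IkB protein that works in the nucleus, where it binds p50 and p52 dimers and can activate as well as repress their targets. Its normalized counts were 551 in knockout library 2 and 772 in knockout library 8, against 970 and 866 in parental libraries 1 and 2. Both knockout libraries were lower, library 2 by more. The log2 difference between the knockout libraries, 0.48 (library 8 minus library 2), was nearly the size of the fold change of -0.49 ± 0.19 by limma (SE; adjusted p = 0.43), and DESeq2 did not call it either (adjusted p = 0.471). Without knockout library 8 the limma log2 fold change of BCL3 was -0.73, and without knockout library 2 it was -0.25. BCL3 ends 241 kb before RELB begins on chromosome 19, and RELB, as given above, differed in the opposite direction.

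The spread within each group was also set beside that of all genes, as a description. The absolute log2 difference between the knockout libraries had a median of 0.10 over the 10 genes (range 0.018 to 0.484) and 0.23 over all genes tested. The parental libraries differed by a median of 0.096 over the 10 genes and 0.093 over all genes tested. Knockout library 2 alone gave the 10 genes a median log2 ratio to the parental mean of 0.44, and knockout library 8 alone gave 0.41; both ratios share the same parental mean.

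**Figure D2:**
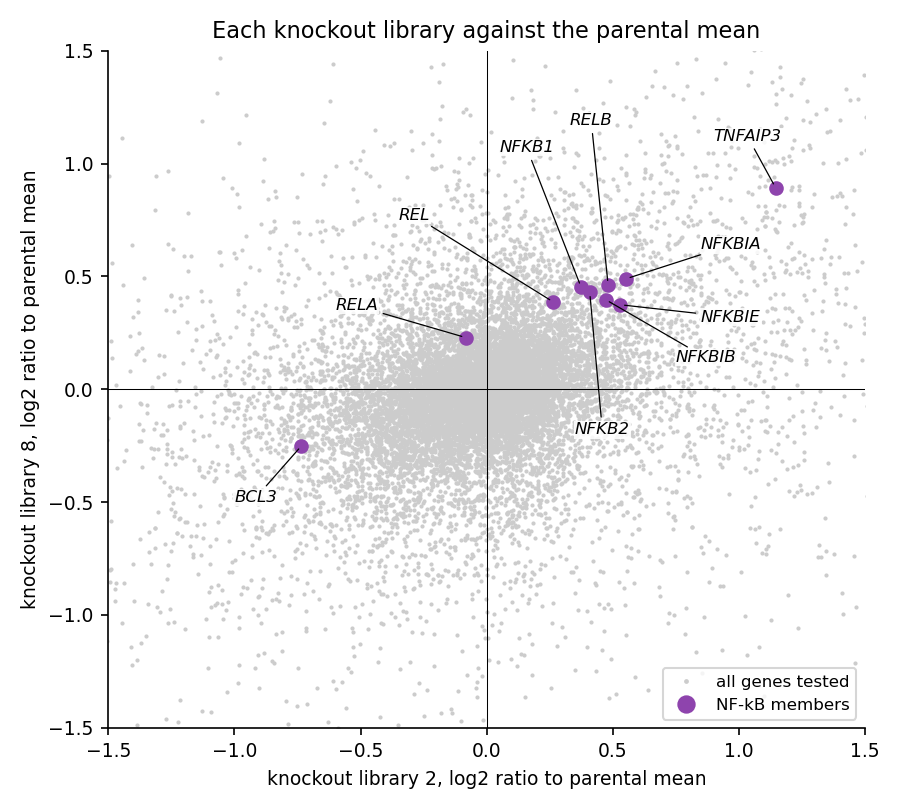
Log2 ratio to the parental mean in knockout library 2 (horizontal) and knockout library 8 (vertical), with a pseudocount of 1; grey points are the 15431 genes tested, of which 752 lie outside the axes of -1.5 to 1.5, and purple points are the 10 genes. The axes share the parental mean, and 8 of the 10 genes lie in the upper right, TNFAIP3 farthest out.

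A ratio of genes within a library does not depend on how libraries were scaled. The log2 ratio of NFKBIA to RELA was 0.13 and -0.25 in knockout libraries 2 and 8, against -0.48 and -0.54 in parental libraries 1 and 2. For TNFAIP3 to RELA it was -0.65 and -1.21 in knockout libraries 2 and 8, against -1.92 and -1.83 in parental libraries 1 and 2. Both ratios were thus higher in both knockout libraries, with library 2, in which RELA was lowest, above library 8. The NFKBIB ratio was -1.28 and -1.67 in knockout libraries 2 and 8, against -1.94 and -1.74 in parental libraries 1 and 2, and in knockout library 8 it stood only slightly above parental library 2. For NFKBIE it was -2.01 and -2.47 in knockout libraries 2 and 8, against -2.65 and -2.59 in parental libraries 1 and 2. The BCL3 ratio was the one lower in both knockout libraries, at -2.47 and -2.29, against -1.78 and -1.85 in parental libraries 1 and 2. Differences of group means, knockout minus parental, were 0.95 for TNFAIP3, 0.45 for NFKBIA, 0.38 for NFKBIE, 0.36 for NFKBIB and -0.56 for BCL3. The smallest p that an exact permutation test of 2 against 2 libraries can give is 33.3%, and no other test was run on these ratios.

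**Figure D3:**
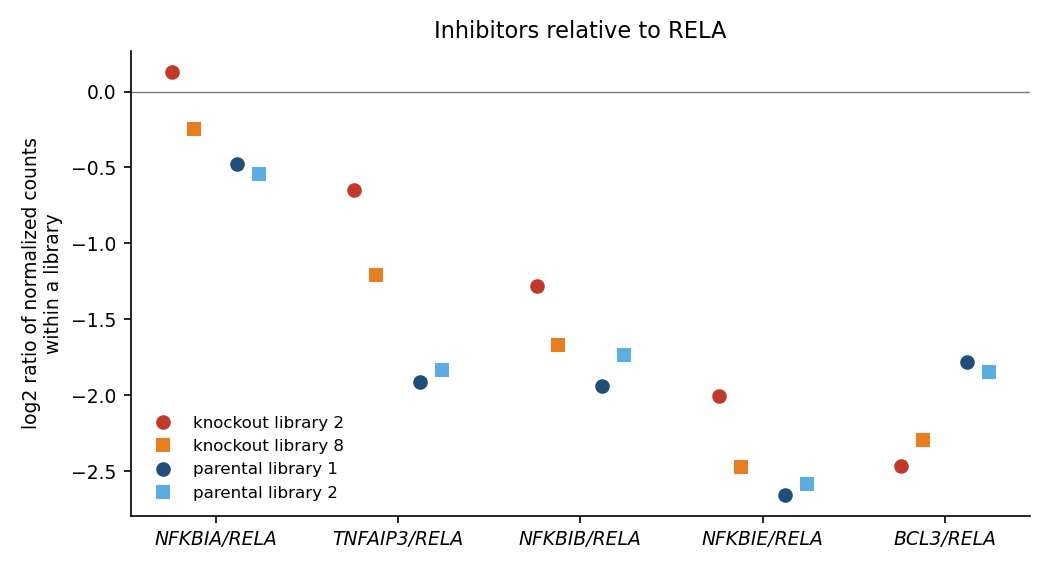
Log2 ratio of the normalized count of each inhibitor gene to that of RELA in the same library, uncorrected for gene length; each point is 1 library. The knockout points lie above the parental points for NFKBIA, TNFAIP3, NFKBIB and NFKBIE and below them for BCL3.

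Levels were compared between genes only per length, as normalized counts per kilobase of exons annotated in GENCODE 29. The length joined the exons of all transcripts of a gene. The annotation behind the counts was not given and may differ, so the ranks depend on this choice of length. NFKB2 was the most abundant of the 10 per kilobase, at 2017 ± 19.6 in the knockout and 1508 ± 72.0 in the parental group (SD, n = 2 libraries each). NFKBIA followed at 1375 ± 43.0 and 958 ± 74.7 in the same order of groups, and NFKB1 at 1082 ± 41.9 and 812 ± 13.2. RELB averaged 800 ± 7.05 in the knockout group, above RELA at 625 ± 95.2. In the parental group RELA at 591 ± 27.6 and RELB at 576 ± 23.1 overlapped, the only neighbours in either order that did. TNFAIP3 ranked 7 in the knockout group, at 355 ± 43.8 per kilobase, and 9 in the parental group, at 174 ± 1.04. BCL3 ranked 9 in the knockout group, at 204 ± 48.0 per kilobase, and 7 in the parental group, at 283 ± 22.8. REL was the least abundant in both groups, at 52.0 ± 3.13 in the knockout and 41.4 ± 7.45 in the parental group, over annotated exons of 13.2 kb that include the shared stretch named above.

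**Figure D4:**
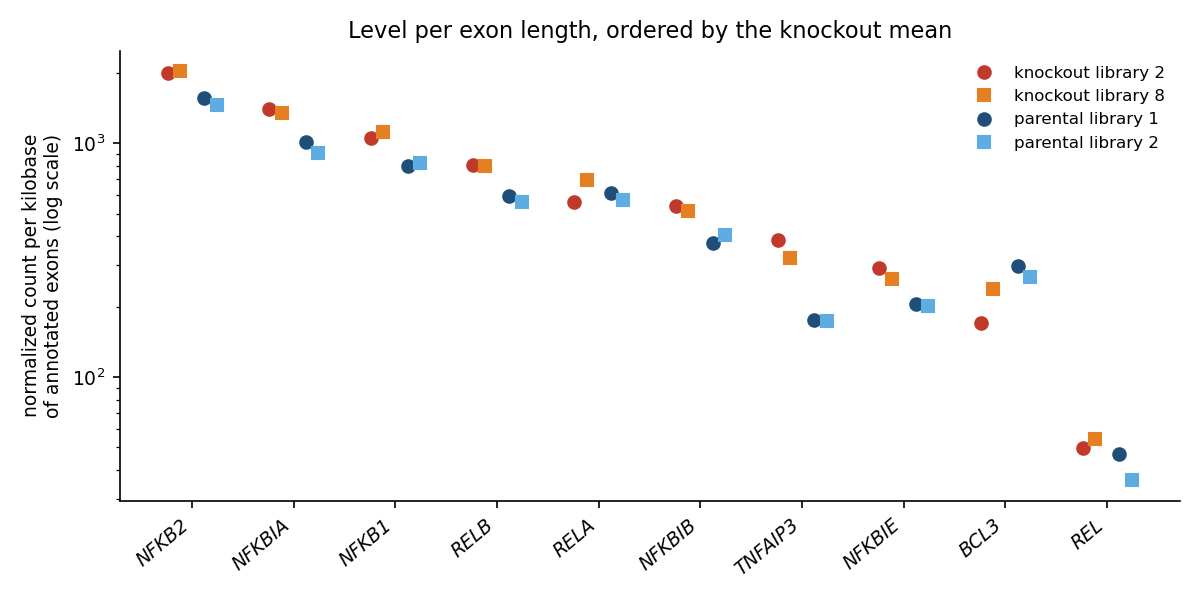
Normalized count per kilobase of annotated exons (log scale) for the 10 genes, ordered by the knockout mean; each point is 1 library. NFKB2, NFKBIA and NFKB1 lead in both groups, TNFAIP3 and BCL3 change places, and REL is lowest.

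The genes around each of the 10 on the chromosome were examined as a local comparison. Over the 40 nearest genes with a mean normalized count of at least 100, median log2 ratios over the parental mean ranged from -0.07 to 0.07 in knockout library 2 and from -0.04 to 0.14 in knockout library 8. The value of 0.14 was that of the genes around BCL3, which itself was lower. Around TNFAIP3 the medians were 0.07 and 0.01 in knockout libraries 2 and 8, and around NFKBIA 0.03 and 0.01.

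Other genes of the pathway were read in 7 lists with 114 entries, all found in the table, of which 104 were tested. The lists too were chosen with earlier results of these data known. At an unadjusted limma p under 0.05, 18 of the 104 were higher and 2 lower, where 5.85% of all genes tested were higher and 6.16% lower. Their median log2 fold change was 0.09, against -0.0057 over all genes tested. Limma called 0 of them at an adjusted p under 0.05, and DESeq2 called 6 higher and 1 lower (2.44% of all genes in either direction, 1.21% higher). The count of those at an unadjusted p under 0.05 was 20 with all libraries. It fell without either parental library and rose without either knockout library, as did the count over all genes tested. Each such fit leaves 1 library in a group, and its spread comes from the other pair alone.

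**Figure D5:**
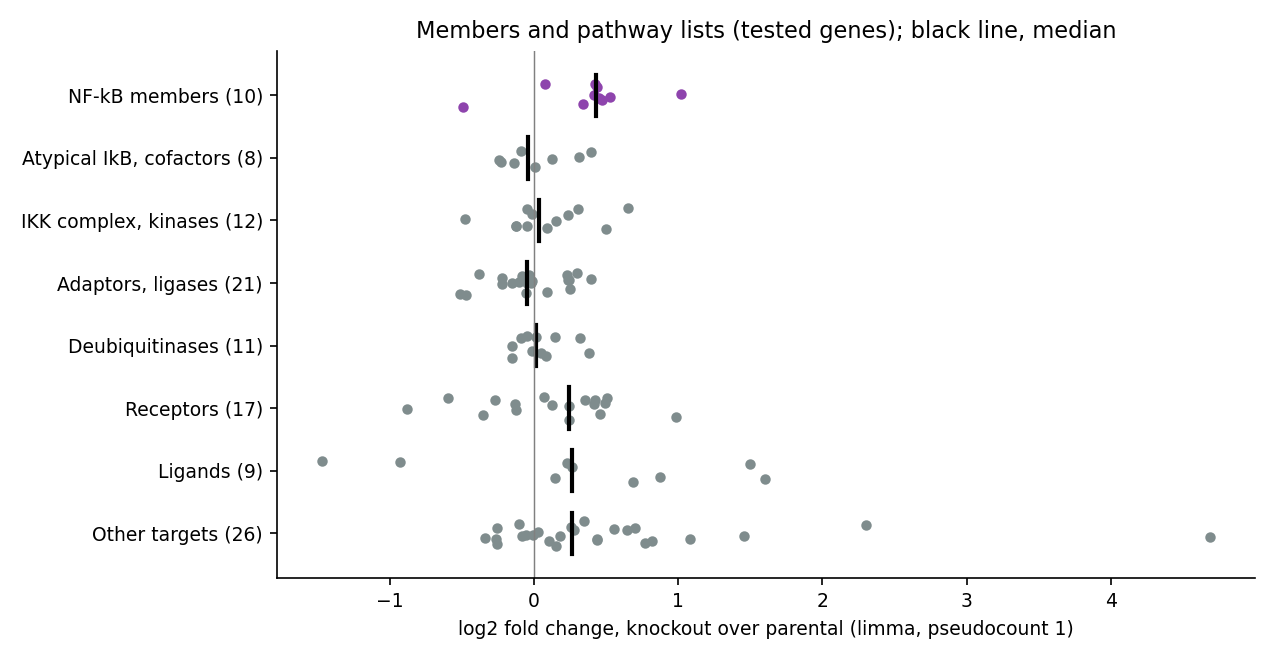
Log2 fold change, knockout over parental, of the tested genes of each list; each point is 1 gene, the black line is the list's median, and the number of genes tested stands in brackets. The medians of the receptor, ligand and target lists lie between 0.24 and 0.27 when both knockout libraries are averaged per gene (by library 2 and 8, ligands 0.71 and 0.03, receptors 0.09 and -0.0076, targets 0.01 and 0.55), and those of the other 4 pathway lists between -0.05 and 0.04.

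Of 15 ligands that start the signal, 9 were tested and 6 fell below the filter; 2 were higher and 0 lower by limma at an unadjusted p under 0.05 (5.85% and 6.16% of all genes tested). The median log2 fold change was 0.27, but the libraries differed, with medians of 0.71 in knockout library 2 and 0.03 in knockout library 8. IL1B, interleukin 1 beta, had normalized counts of 615 and 272 in knockout libraries 2 and 8, against 181 and 115 in parental libraries 1 and 2, and DESeq2 called it higher (adjusted p = 0.0262). IL1A, interleukin 1 alpha, had 4146 and 2285 in knockout libraries 2 and 8, against 1839 and 1535 in parental libraries 1 and 2, and was not called by DESeq2 (adjusted p = 0.0575). Both were highest in knockout library 2. TNF, the namesake of its cytokine family, stood at 5.26 and 17.6 in knockout libraries 2 and 8, against 34.0 and 24.6 in parental libraries 1 and 2 (DESeq2 adjusted p = 0.765). TNFSF9, the ligand of 4-1BB, had 163 and 368 in knockout libraries 2 and 8, against 479 and 455 in parental libraries 1 and 2 (DESeq2 adjusted p = 0.462).

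Of the 17 receptors tested, 1 was higher and 0 lower by limma at an unadjusted p under 0.05, which is near the background of 5.85% higher among all genes, and DESeq2 called 0. The list's median log2 ratios were 0.09 in knockout library 2 and -0.0076 in knockout library 8. TLR6, a partner of TLR2 in sensing bacterial lipopeptides, had normalized counts of 603 and 678 in knockout libraries 2 and 8, against 523 and 436 in parental libraries 1 and 2 (limma log2 fold change 0.42 ± 0.15, SE; adjusted p = 0.394). Neither chain of the interleukin 1 receptor was called, and both differed more in knockout library 2 than in library 8. IL1R1 had 80.0 and 36.1 in knockout libraries 2 and 8, against 26.3 and 27.2 in parental libraries 1 and 2 (DESeq2 adjusted p = 0.643), while IL1RAP had 520 and 1296, against 1633 and 1402 (DESeq2 adjusted p = 0.538). CD40 had 415 and 263 in knockout libraries 2 and 8, against 272 and 211 in parental libraries 1 and 2, so that its groups overlapped.

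Among 21 adaptors and ubiquitin ligases, 1 was higher and 1 lower by limma at an unadjusted p under 0.05, no more than the 5.85% and 6.16% of all genes. The lower one was TRAF5, an adaptor that couples TNF-family receptors to the kinases, at 1423 and 1378 normalized counts in knockout libraries 2 and 8, against 1935 and 1941 in parental libraries 1 and 2. The pairs of TRAF5 values were tight in both groups, and it was the 1 pathway gene that DESeq2 called lower (adjusted p = 0.028). The higher one was IRAK2, a kinase of interleukin 1 and Toll-like receptor signalling, at 898 and 849 in knockout libraries 2 and 8, against 668 and 661 in parental libraries 1 and 2 (DESeq2 adjusted p = 0.287). BCL10 and TRAF3 were also higher in both knockout libraries, with limma log2 fold changes of 0.23 and 0.30 and unadjusted p-values of 0.0835 and 0.102.

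Of 12 genes of the IkB kinase complex and the kinases above it, 2 were higher and 1 lower by limma at an unadjusted p under 0.05 (5.85% and 6.16% of all genes tested), and DESeq2 called 0. IKBKE, an IkB kinase-related enzyme, had normalized counts of 1601 and 1127 in knockout libraries 2 and 8, against 949.5 and 946 in parental libraries 1 and 2. MAP3K8, the kinase TPL2, had 97.9 and 92.8 in knockout libraries 2 and 8, against 66.9 and 54.4 in parental libraries 1 and 2. Both were higher in both knockout libraries, by log2 0.50 ± 0.19 for IKBKE and 0.65 ± 0.23 for MAP3K8 by limma (SE; adjusted p = 0.407 and 0.394). The lower one was TAB3, an adaptor of the kinase TAK1, at 1880 and 2274 in knockout libraries 2 and 8, against 3086 and 2693 in parental libraries 1 and 2 (limma log2 fold change -0.48 ± 0.13, SE; adjusted p = 0.322). MAP3K7, TAK1 itself, had a limma log2 fold change of 0.15 (adjusted p = 0.521). For the core kinases CHUK and IKBKB, named after their values were seen, it was 0.09 and -0.13.

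Deubiquitinases and A20 partners held 11 tested genes, with 2 higher and 0 lower by limma at an unadjusted p under 0.05 (5.85% and 6.16% of all genes tested) and 0 called by DESeq2. TNIP1, which binds A20, had normalized counts of 4082 and 4377 in knockout libraries 2 and 8, against 3284 and 3205 in parental libraries 1 and 2 (DESeq2 adjusted p = 0.0843). CYLD, which trims the ubiquitin chains that carry the signal, had 2077 and 2054 in knockout libraries 2 and 8, against 1614 and 1696 in parental libraries 1 and 2 (DESeq2 adjusted p = 0.295). Neither gene overlapped between the groups. ZFAND5 and USP21 had limma log2 fold changes of -0.15 each. Of 8 other IkB proteins and cofactors, 1 was higher and 0 lower by limma at an unadjusted p under 0.05 (5.85% and 6.16% of all genes tested). It was NFKBIZ, an inducible nuclear IkB protein, at 2375 and 2300 in knockout libraries 2 and 8, against 1924 and 1840 in parental libraries 1 and 2 (limma log2 fold change 0.31 ± 0.08, SE; adjusted p = 0.306). NFKBID, another nuclear IkB protein, had 366 and 266 in knockout libraries 2 and 8, against 228 and 246 in parental libraries 1 and 2. PDLIM2 and NFKBIL1 had limma log2 fold changes of -0.24 and -0.23 with adjusted p-values of 0.529 and 0.58.

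Among other target genes of NF-kB, 26 of 29 were tested; 9 were higher and 0 lower by limma at an unadjusted p under 0.05 (5.85% and 6.16% of all genes tested). DESeq2 called 5 higher and 0 lower (1.21% of all genes higher). The list's median log2 ratio over the parental mean was 0.01 in library 2 and 0.55 in library 8 of the knockout group, where the 10 subunit and inhibitor genes had 0.44 and 0.41; this difference between libraries was not tested. The 5 called by DESeq2 were the chemokines CCL2 and CXCL8, the cytokine LIF, the stress gene IER3 and the gelatinase MMP9. Their limma log2 fold changes were 1.46, 1.08, 0.77, 0.65 and 4.69 in that order. Several rest more on knockout library 2: against the parental mean, LIF stood at a log2 ratio of 1.06 in library 2 and 0.48 in library 8, and IER3 at 0.91 and 0.39. MMP9 had 469 and 27.3 normalized counts in knockout libraries 2 and 8, against 2.19 and 5.26 in parental libraries 1 and 2, so its size rests on knockout library 2. BCL2A1, a survival gene of the BCL2 family, had 648 and 646 in knockout libraries 2 and 8, against 431 and 451 in parental libraries 1 and 2 (DESeq2 adjusted p = 0.082). MYC, a growth regulator, had 670 and 704 in knockout libraries 2 and 8, against 503 and 511 in parental libraries 1 and 2 (DESeq2 adjusted p = 0.249).

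The 3 tested genes whose centred log2 values over the 4 libraries lay closest to the mean profile of the 10 were SEC14L4, ADGRL2 and LNPEP, at Euclidean distances of 0.019, 0.036 and 0.037. By the same measure the nearest of the 10 themselves was NFKB2 at 0.057, followed by NFKB1 at 0.10, and the farthest was BCL3 at 0.91. The distances rest on 4 libraries and are a description.

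Whole reads recovered from the table totalled 30334054 and 32160978 in knockout libraries 2 and 8, against 29230554 and 36331894 in parental libraries 1 and 2. The p53 targets CDKN1A and MDM2 had limma log2 fold changes of -0.06 and -0.11 (adjusted p = 0.951 and 0.639), CDKN1A with the knockout libraries on either side of the parental ones. Only these targets were set as checks. Other p53 targets are not described here, and these do not stand for all of them. Of 12 melanocyte lineage markers, 8 were tested and MLANA and TYR were at 0 in all 4 libraries. They summed to 44982 and 41958 normalized counts in knockout libraries 2 and 8, against 48527 and 46882 in parental libraries 1 and 2, most of it SOX10. MITF, the lineage's master regulator, had 849 and 1049.9 in knockout libraries 2 and 8, against 1645 and 1562 in parental libraries 1 and 2, and DESeq2 called it lower (adjusted p = 0.00272). S100B was also lower in both knockout libraries, by a limma log2 fold change of -0.41 (adjusted p = 0.341). SOX10 and S100A1 were lower in both as well. PMEL was higher in both, at 55.8 and 36.1 in knockout libraries 2 and 8, against 28.5 and 28.1 in parental libraries 1 and 2. PAX3, AXL and NGFR overlapped between the groups. Of 12 blood cell markers, 9 stayed under 10 normalized counts in all libraries, and PTPRC reached at most 1.95. The 12 summed to 164 and 304 in knockout libraries 2 and 8, against 113 and 139 in parental libraries 1 and 2, most of it LYZ. ITGAM had 29.5 and 25.4 in knockout libraries 2 and 8, against 13.2 and 7.89 in parental libraries 1 and 2 (limma adjusted p = 0.34). CD14 overlapped between the groups, at 11.6 and 6.84 in knockout libraries 2 and 8, against 12.1 and 9.65 in parental libraries 1 and 2. The 7 fibroblast markers summed to 2336 and 1384 in knockout libraries 2 and 8, against 1353 and 1299 in parental libraries 1 and 2, mostly PDGFRB and PDGFRA. Among them DCN had 30.5 and 27.3 in knockout libraries 2 and 8, against 11.0 and 14.9 in parental libraries 1 and 2 (limma adjusted p = 0.347), and COL1A2 reached at most 3.51. LUM overlapped between the groups, at 31.6 and 165 in knockout libraries 2 and 8, against 92.1 and 101 in parental libraries 1 and 2. COL1A1 and PDGFRB also overlapped. The 4 endothelial markers summed to 818 and 690.5 in knockout libraries 2 and 8, against 467 and 594 in parental libraries 1 and 2, most of it KDR. PECAM1 had 17.9 and 19.5 in knockout libraries 2 and 8, against 7.67 and 6.14 in parental libraries 1 and 2 (limma adjusted p = 0.319). VWF had a limma log2 fold change of 0.16 (adjusted p = 0.809). The 6 epithelial markers summed to 7063 and 6784 in knockout libraries 2 and 8, against 7702 and 7520 in parental libraries 1 and 2, most of it KRT18. Their part in the results above was not tested. In bulk RNA, more cells expressing a gene and more RNA per cell cannot be told apart.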

How the data were processed

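The deposited table gives 1 normalized signal value per gene symbol and library. The values show that the authors scaled read counts by a factor for each library: in every library 100% of values are whole multiples of the smallest step, within 0.001, so whole reads could be recovered. The submitters' processing notes name STAR, Picard, HTSeq, DESeq2, deepTools and hg38. Software versions, the annotation and the strand setting were not given in the sources used here. The numbers 2 and 8 on the knockout columns do not identify labelled replicates. Counts within each pair differed by more than sampling noise, with a chi-square of 65.3 per degree of freedom in the knockout and 5.82 in the parental pair.

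A gene was tested if 2 or more libraries reached a normalized count of 10. The 15431 such genes were fitted with limma 3.58.1 (trend) on log2(normalized count + 1), with Benjamini-Hochberg adjustment; such fold changes understate those of low genes. As alternatives, recovered reads were tested with edgeR 4.0.16 (quasi-likelihood), DESeq2 1.42.0 (all rows, its own filter) and limma-voom. Methods were tested on simulated data, with a required check on mean fold changes only. Both groups were simulated with the same spread, so the simulation does not decide between the methods' counts of calls here. Positions come from GENCODE 29 on GRCh38 and promoters from RefSeq.

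The 10 genes and the lists were chosen with earlier results of these data known. Also named were, per list, the 4 genes with the smallest limma p and any called by DESeq2 or limma, then CDKN1A, MDM2 and the 3 nearest profiles. The transcript of the targeted gene is not reported here. DESeq2 without each library and the promoter search were added after seeing the data.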

Additional observations from a re-analysis of the deposited data

How the results depend on the processing

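Of 120 fold changes of the 10 genes under the alternatives tried, 119 kept their direction. The exception was RELA, with a log2 fold change between -0.082 and 0.23 when each library was left out in turn. With TMM scaling, pseudocounts of 0.1 and 5, no filter and a filter at 50, limma called 0 genes, as in the main test. A count already at 0 shows little about these settings. The smallest adjusted p over all genes by limma was 0.121 in the main test, 0.0924 with no filter and 0.148 with the filter at 50. DESeq2 called 398 genes and 5 of the 10. Leaving out each library in turn, limma called between 0 and 5023 genes in all and between 0 and 8 of the 10; between 3 and 9 of the 10 were higher at an unadjusted p under 0.05, and between 4 and 66 genes of the 7 lists were higher or lower at that p. DESeq2 then called between 39 and 2611 genes and between 0 and 8 of the 10. Without a parental library the spread comes from the knockout pair alone, and without a knockout library from the parental pair alone; the lone library is assumed to vary like the other group. CDKN1A had a log2 fold change of 0.0095 by edgeR and DESeq2, and between -0.52 and 0.40 without each library in turn (0.0038 without parental library 2). With 20 neighbouring genes in place of 40, the largest median ratio around a gene was 0.147 in place of 0.141. The range in knockout library 2 was wider with 20 genes, from -0.146 around NFKBIB to 0.138 around RELA. With 40 genes these 2 medians were -0.030 and 0.037. Around TNFAIP3 the median in that library was -0.059 with 20 genes and 0.074 with 40. No paired analysis was possible because the knockout values are numbered 2 and 8 and cannot be matched to the labelled replicate numbers.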

Other observations

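Of the listed pathway genes, 10 fell below the filter on low counts and were not tested. Among these, the cytokine IL6 had 2.10 and 26.4 normalized counts in knockout libraries 2 and 8, against 2.19 and 2.63 in parental libraries 1 and 2. TNFSF11, the ligand RANKL, had 80.0 and 3.91 in knockout libraries 2 and 8, against 5.48 and 6.14 in parental libraries 1 and 2. Each was thus high in a single knockout library, and not in the same one. Both were singled out after their values were seen.

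Some tested target genes also parted between the knockout libraries. CSF2, a colony-stimulating factor, had 62.1 and 579 normalized counts in knockout libraries 2 and 8, against 203 and 121 in parental libraries 1 and 2. SOD2, the mitochondrial superoxide dismutase, had 3106 and 8340 in knockout libraries 2 and 8, against 5988 and 4986 in parental libraries 1 and 2. PTGS2, the prostaglandin synthase COX-2, had 6180 and 1248 in knockout libraries 2 and 8, against 667 and 475 in parental libraries 1 and 2. These 3 were also chosen after their values were seen.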
